A study of Mus musculus with 22 samples.

Results

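The H3K27me3 landscape of control mouse retina without Cre was described over 18381 autosomal peaks, out of 19034 peaks in the deposited table. The 653 peaks on the X chromosome were left out because the animals differed in sex. Among the called peaks, the members were chosen by their samples and chromosome, not by a measured value. All autosomal peaks were kept, with the read counts of the 4 control animals that carry no Cre allele. Which libraries the shared set was called on is not in the labels, so a peak may have been called in other samples. In controls 2, 4 and 5 the weakest peak held no reads. Retinas were taken from C57BL/6 embryos at embryonic day 18.5, and H3K27me3 was mapped by CUT&RUN, in which an antibody-tethered nuclease releases DNA next to marked nucleosomes. Controls 2, 4 and 5 were Jarid2 fl/+ and control 3 was Jarid2 fl/fl. A floxed allele is intact in the absence of Cre. The protocol names the controls Jarid2 fl/fl throughout, whereas the genotypes used here are those of the sample labels. All dams, those of the Cre-free controls included, were given tamoxifen at 75 µg per g of body weight at E10.5, per the labels' protocols. Both retinas of an embryo were pooled as 1 sample. Control 2 was a female of batch 1, and controls 3, 4 and 5 were males of batch 2 with 2 technical duplicates each, so batch, litter and sex cannot be told apart between control 2 and the rest.

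H3K27me3 is written by Polycomb repressive complex 2 (PRC2) and is found over promoters of developmental regulators that a tissue keeps silent. PRC2 is recruited in mammals largely to CpG islands that lack transcription, and JARID2, the protein removed by Cre in this study, is an accessory subunit of PRC2. In embryonic retina, progenitors give rise to ganglion, amacrine, horizontal, photoreceptor, bipolar and Mueller glial cells in an overlapping order. The mark does not measure RNA, so the tissue label could not be checked by marker expression. Each value is a mean over all cells of both retinas, and a mark on more cells cannot be told apart from more mark per cell.

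Depth was 1646000, 2827378, 2539931 and 2046716 reads in autosomal peaks for controls 2 to 5. Technical duplicates were summed, since a chi-square over its degrees of freedom was 0.879 to 0.959 for the 3 pairs and thus within sampling noise. The same ratio was 1.29 to 2.29 for pairs of animals. Density was CPM per kb: a peak's reads scaled to the animal's total reads in peaks (CPM), divided by the width of the peak in kb. Peak coordinates are those of the deposited table in mm10. The density is one of reads inside called peaks, and no IgG signal was subtracted. Across the 4 animals, Spearman correlations of density over peaks ran from 0.831 to 0.882. Peaks are not independent replicates, and the animals share one set of peaks.

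The start-site sequences of 5 genes from different parts of this range are shown first, with every CG dinucleotide in capitals. They run from 250 bases before to 50 bases after the RefSeq start (build GRCm38.p6), 5′ to 3′ on the strand of the gene. Isl1 (chr13:116309639-116309938, minus strand) had one of the densest peaks of all, Hoxa10 (chr6:52234890-52235189, minus strand) lay in a domain of the HoxA cluster, and Fam114a1 (chr5:64969825-64970124, plus strand) had a peak at the median density. Gm6408 (chr5:146481693-146481992, plus strand) had one of the weakest promoter peaks, and the start of the glycolysis gene Gapdh (chr6:125165724-125166023, minus strand) lay in no peak.
Isl1: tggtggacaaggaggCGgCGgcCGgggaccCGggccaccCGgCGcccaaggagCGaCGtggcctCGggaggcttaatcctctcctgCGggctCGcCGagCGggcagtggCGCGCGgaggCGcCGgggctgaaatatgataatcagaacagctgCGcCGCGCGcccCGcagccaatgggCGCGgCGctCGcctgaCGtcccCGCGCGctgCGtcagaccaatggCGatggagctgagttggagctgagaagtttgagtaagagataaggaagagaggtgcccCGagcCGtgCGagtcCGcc
Hoxa10: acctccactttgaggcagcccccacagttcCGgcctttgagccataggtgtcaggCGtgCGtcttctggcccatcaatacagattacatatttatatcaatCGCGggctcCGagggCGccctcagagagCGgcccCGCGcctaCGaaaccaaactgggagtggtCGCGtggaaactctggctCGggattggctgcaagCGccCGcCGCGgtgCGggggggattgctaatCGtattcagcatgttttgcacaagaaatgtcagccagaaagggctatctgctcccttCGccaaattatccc
Fam114a1: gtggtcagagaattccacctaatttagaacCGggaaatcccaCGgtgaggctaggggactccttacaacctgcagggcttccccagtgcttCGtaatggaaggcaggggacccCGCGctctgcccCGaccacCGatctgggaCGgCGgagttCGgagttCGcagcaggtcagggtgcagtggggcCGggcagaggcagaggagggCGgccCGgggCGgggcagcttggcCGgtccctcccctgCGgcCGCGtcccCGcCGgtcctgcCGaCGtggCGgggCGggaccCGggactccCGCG
Gm6408: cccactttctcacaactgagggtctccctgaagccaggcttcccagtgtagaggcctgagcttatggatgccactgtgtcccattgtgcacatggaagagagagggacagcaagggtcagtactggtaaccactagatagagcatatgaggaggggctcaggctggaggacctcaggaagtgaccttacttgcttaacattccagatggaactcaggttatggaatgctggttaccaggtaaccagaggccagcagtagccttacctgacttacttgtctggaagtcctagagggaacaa
Gapdh: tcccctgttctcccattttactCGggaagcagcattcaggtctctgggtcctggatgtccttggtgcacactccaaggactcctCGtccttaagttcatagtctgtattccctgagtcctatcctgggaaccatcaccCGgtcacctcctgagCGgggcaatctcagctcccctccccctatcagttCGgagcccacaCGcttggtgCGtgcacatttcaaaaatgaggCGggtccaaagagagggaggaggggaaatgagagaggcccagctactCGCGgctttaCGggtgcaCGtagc
The Isl1 window held 37 CG dinucleotides, Fam114a1 28, Hoxa10 21 and Gapdh 12, and the Gm6408 window held 0. Of all autosomal protein-coding windows of this length, 95.2% held at least 1 CG, and the median was 15.

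Density spanned from 0.75 to 89.9 CPM per kb, with a median of 5.28 over the means of 4 animals. The middle of the distribution was narrow: the lower quartile was 3.83 and the upper quartile 8.39. The top was a long tail, with the 90th percentile at 14.4 and the 99th at 28.7. The highest decile, 1839 peaks, held 55.9% of all reads in autosomal peaks, and the lower deciles each held between 0.735% and 17.3%. Of these peaks, 1505 were in the highest decile of each of the 4 animals taken alone. At the edge of the highest decile, the peaks of Eya1 (14.4 ± 1.28, SD, n = 4) and Gm34299 (14.4 ± 1.71) were just inside, and those of Shisal2a (14.4 ± 1.67) and Bcl11b (14.4 ± 0.51) just outside. These 4 differ by less than their SD between animals.

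Peaks of high, middle and low density differed in place and size. In the highest decile 83.6% of peaks lay within 1 kb of a transcription start, the median width was 9411 bp, and a peak held a median of 441.5 reads per animal. In the sixth decile, just above the median, 33.7% lay within 1 kb of a start and the median width was 2811 bp. In the lowest decile 13.4% lay within 1 kb of a start, 44.5% were intergenic, and the median width was 1291 bp with 7.25 reads per animal. The spread between animals followed this depth: the median coefficient of variation was 6.64% in the highest decile and 30.9% in the lowest, where counting error alone gives a median of 39.8%. At so few reads this estimate of counting error is rough, and variation between animals at the low end cannot be told apart from it.

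The animals differed in how steep this landscape was. The highest decile held 57.4% of reads in control 2, 57.4% in control 3, 55.8% in control 4 and 53.0% in control 5. The median density of the highest decile was 8.45, 8.88, 7.97 and 6.30 times that of the lowest decile in controls 2 to 5. Control 5 had the flattest distribution, and its overall median density of 6.09 was above those of controls 2 (4.99), 3 (5.02) and 4 (5.34). Within batch 2 the ratio fell with reads in peaks, from control 3 to control 5. Control 2, which had the fewest reads and alone stood for batch 1, had 8.45. The cause was not tested.

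Promoter peaks, which the deposited annotation defines as those within 3 kb of a start, had the highest median density of any annotation class. They were 9098 of the peaks (49.5%) and held 76.8% of reads, and their median density was 6.26, 6.20, 6.47 and 7.10 in controls 2 to 5. Distal intergenic peaks, 5863 in number and 14.2% of reads, had medians of 4.12, 4.24, 4.56 and 5.33. The 2385 intronic peaks, with 5.23% of reads, had medians of 4.42, 4.28, 4.61 and 5.35. Within each animal the promoter median was above those of both classes.

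The promoter median was 1.43 times the intergenic median, 1.4 times the intronic, 1.32 times the exonic, 1.26 times that of 3′ UTRs and 1.2 times that of 5′ UTRs. Over the 11 peaks downstream of genes its log2 ratio was 0.47. All 6 differences had the same sign in 4 of 4 animals, with p = 0.125 in a two-sided exact sign-flip permutation test over animals for each class, adjusted p = 0.125. This is the smallest value that 4 animals allow, so no class difference could pass 0.05.

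High promoter density was a feature of the peaks that reach the start itself. The 5106 peaks with a start inside them had a median density of 9.37 and held 68.0% of reads on 50.7% of the covered bases. Their medians were 9.25, 9.20, 9.38 and 9.63 in controls 2 to 5, a narrower spread than in any other distance class. Promoter peaks between 1 and 2 kb from a start had a median of 4.62, and those between 2 and 3 kb a median of 4.30, close to the intronic and intergenic classes. Density was lowest between 3 and 10 kb (4.24) and higher again beyond 50 kb (5.63), in every animal. Among peaks with a start inside, those at protein-coding genes had a median of 10.2, those at long intergenic non-coding RNAs 7.75 and those at processed pseudogenes 6.11.

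**Figure D1:**
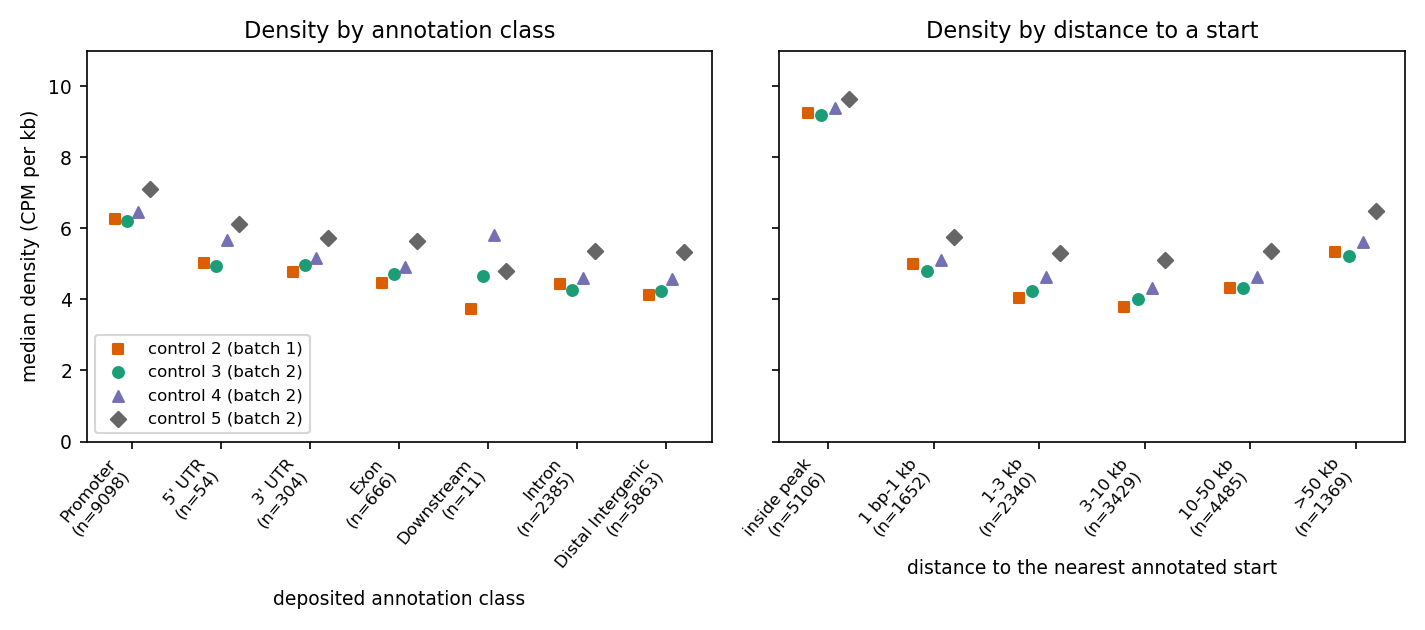
Median density (CPM per kb) in each of the 4 animals by deposited annotation class (left) and by distance to the nearest annotated start (right), with the number of peaks under each class. Promoters stood highest among classes in each animal, and peaks with a start inside them, at 9.20 to 9.63, stood above all other distances.

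Wide peaks were dense peaks, at starts and away from them. Over all autosomal peaks, the Spearman correlation of density with width was 0.634, a description in which both values share the peak's width. Peaks under 1 kb with a start inside had a median density of 3.89, and those over 3 kb from a start 3.66. At 5 to 10 kb the medians were 11.1 with a start inside and 7.01 away from starts. At 20 to 50 kb they were 20.4 and 15.4. The 40 peaks over 50 kb wide made up 0.218% of peaks and held 7.54% of reads, and 38 of them were in the highest decile of density.

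**Figure D2:**
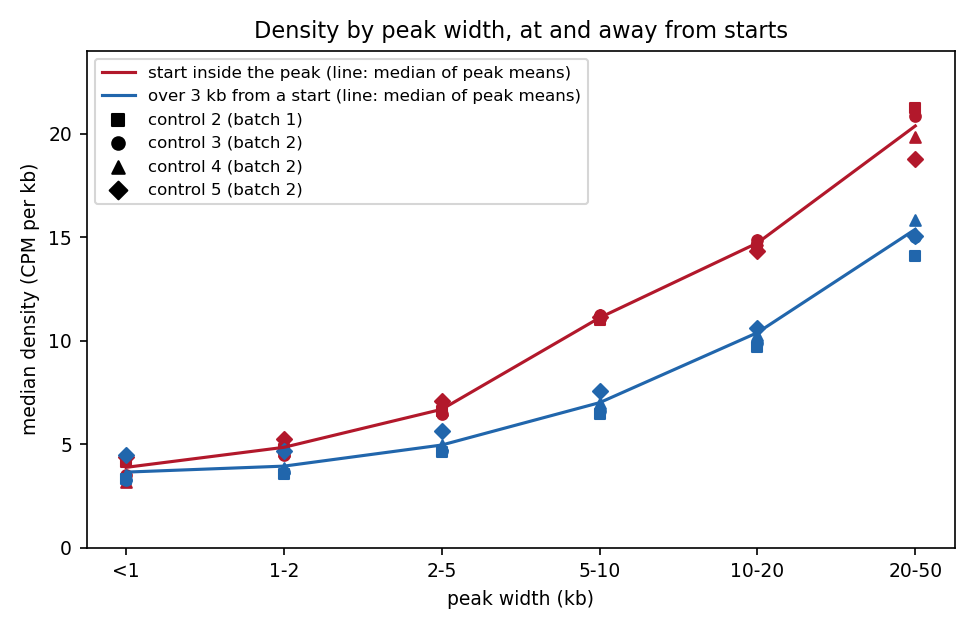
Median density (CPM per kb) by peak width for peaks with a start inside (red) and peaks over 3 kb from any start (blue), with 1 symbol per animal and lines for the median of the peaks' 4-animal means. Both rise with width, from 3.89 to 20.4 and from 3.66 to 15.4, and the starts lie above the others in each animal from 1 kb upward. Under 1 kb the order was reversed in 2 animals: controls 4 and 5 had 3.19 and 4.41 with a start inside, against 3.53 and 4.50 away from starts.

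The widest domains covered the Hox clusters, whose genes set position along the body axis. The HoxC domain (chr15:102882920-103152790, assigned to Hoxc13) was 270 kb wide with a density of 26.8 ± 1.81 (SD, n = 4). The HoxA domain (chr6:52142890-52332850, assigned to Hoxa10) was 190 kb wide, with 32.6, 31.3, 28.0 and 26.2 in controls 2 to 5. The HoxB domain (chr11:96230660-96386780, assigned to Hoxb6) was 156 kb wide with 26.4 ± 2.35, and the HoxD domain (chr2:74638350-74780400, assigned to Evx2) 142 kb wide with 29.8 ± 2.69. All 4 clusters were highest in control 2 and lowest in control 5, with controls 3 and 4 between. This order was not particular to Hox clusters: the dense peak of Hand2 had it as well, and that of Kcnj8 did not. The fifth widest peak, at Htatip2 on chromosome 7 (49654740 to 49778180), was 123 kb wide at a lower density of 18.9 ± 1.35.

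Because the annotation gives a whole cluster to 1 gene, 5 of 39 Hox genes had a peak of their own in the table, 4 of them in the highest decile of genes, which by definition holds 10% of all genes with a peak. By RefSeq starts instead, 22 of 22 Hox genes with a promoter window lay inside a peak of the highest decile, against 5.97% of all protein-coding genes with a window. The HoxA domain held 9 of these starts together with that of Evx1, and the HoxD domain 9 together with that of Evx2. The HoxB domain held 3, and the HoxC domain only that of Hoxc4. These starts thus share few peaks and are not separate regions. Hox genes without a window could not be counted in this way. Hoxd1 shows what the assignment does: its own peaks, 7.95 kb in all, gave a gene density of 3.37 ± 0.571, whereas its start lay in the domain assigned to Evx2.

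The densest peak of all lay 2.94 kb from the start of Ndst3 (chr3:123675520-123682570), which encodes an enzyme that modifies heparan sulfate. Since IgG libraries were not analysed, non-specific signal at this peak was not tested. The peak did not reach the start. Its density was 76.5, 86.6, 98.7 and 97.8 in controls 2 to 5, and every animal was above any value of the next peak. That peak covered the start of Alx1 (chr10:103022880-103039600), a homeobox gene of craniofacial mesenchyme, with 52.6, 50.3, 49.7 and 48.0. Isl1 (chr13:116289900-116319490) followed among protein-coding promoters with 48.0, 46.4, 46.5 and 42.2 over a 29.6 kb peak. Isl1 encodes a LIM-homeodomain factor of motor neurons and of several retinal neuron types, and is thus a gene used within this tissue.

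The other described peaks among the 12 densest promoter peaks of protein-coding genes held between 39.3 and 44.0 CPM per kb. Regulators of mesoderm and organ formation were Osr1 (42.9 ± 1.84), Tbx20 (41.0 ± 2.10) and Hand2 (39.3 ± 2.72, over 57.8 kb), which act in kidney and limb mesenchyme or in the heart. Fezf1, a zinc finger factor of the forebrain and olfactory system, had 44.0 ± 3.27. Other kinds of gene were also present: Kcnj8, a potassium channel of pericytes (42.5 ± 2.16), and Cyp27b1, the enzyme that activates vitamin D (42.1 ± 1.69). L1td1, a gene of pluripotent cells, had 41.6 ± 1.76, and Adcyap1, which encodes the neuropeptide PACAP, had 40.3 ± 2.01. Except at Ndst3, values of described neighbours in this order overlapped between animals. Within each animal, however, Alx1 was above Isl1 and Isl1 above Fezf1. Further down the order was not the same in every animal: Fezf1 was below Osr1 in control 5 (39.3 against 40.8).

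Among the 12 densest peaks of any kind, 2 were assigned to genes that do not code for protein. The peak assigned to Gm27844 on chromosome 1 had 46.9 ± 3.78. The peak assigned to AI606473 (chr3:154317060-154338060) had 41.1 ± 2.51 and contained the RefSeq start of Lhx8, a LIM-homeobox gene of forebrain cholinergic neurons. Lhx8 had no peak of its own in the annotation, as with the Hox genes.

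**Figure D3:**
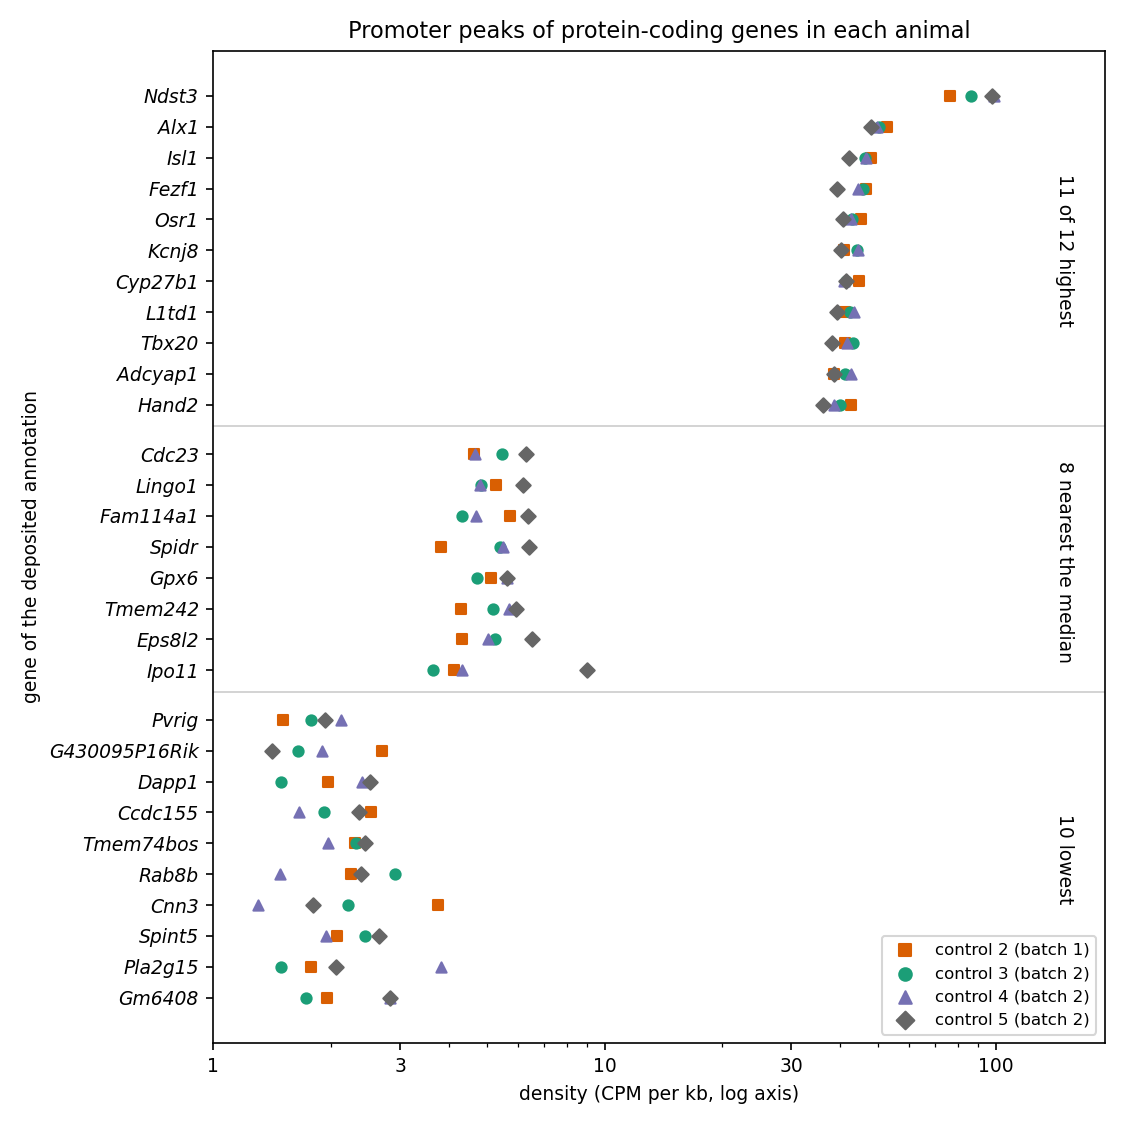
Density (CPM per kb, log axis) in each of the 4 animals for 11 of the 12 densest promoter peaks of protein-coding genes, the 8 nearest the median and the 10 lowest with at least 10 reads per animal on average. The choice of peaks fixes that the means of the 3 groups do not overlap, although values of single animals overlap between the lowest peaks (up to 3.82) and those nearest the median (from 3.63), and the animals lie closer together at the top than at the bottom.

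At the median, promoter peaks belonged to genes of no shared kind. The 8 nearest were those of Cdc23, a subunit of the anaphase-promoting complex, Lingo1, a neuronal membrane protein, Fam114a1, Spidr, a DNA repair factor, Gpx6, a glutathione peroxidase, Tmem242, Eps8l2 and Ipo11, an importin. Each had a mean of 5.27 to 5.28 by construction, from 10 to 139 reads per animal. At Fam114a1 the animals had 5.75, 4.31, 4.68 and 6.38, and at Gpx6 5.14, 4.71, 5.64 and 5.64. Of these 8 peaks, 2 had a start inside them, those of Fam114a1 and Eps8l2.

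The 10 lowest promoter peaks of protein-coding genes that averaged at least 10 reads per animal had densities from 1.83 to 2.33. The lowest was that of Pvrig, an inhibitory receptor of lymphocytes, with 7, 14, 15 and 11 reads in controls 2 to 5. The others belonged to G430095P16Rik, Dapp1, an adaptor of B-cell signalling, Ccdc155, Tmem74bos, Rab8b, a vesicle-transport GTPase, Cnn3, an actin-binding calponin, Spint5, Pla2g15, a lysosomal phospholipase, and Gm6408. At Cnn3 the animals had 3.74, 2.21, 1.30 and 1.79, a range wider than the distance between the first and the last of the 10. Their order is thus not resolved at this depth. Only Tmem74bos and Gm6408 had a start inside the peak. Without the requirement for reads, the lowest autosomal peak was an intergenic one assigned to Ctf2, with 2, 1, 3 and 2 reads and a density of 0.75 ± 0.32.

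Outside promoters, few peaks reached the density of the top promoters. The densest intronic peaks were assigned to Gm11266 (28.6 ± 3.39), Gm48880 (27.2 ± 1.75), Gm35867 (24.4 ± 1.78), Lgr6, a stem-cell receptor for R-spondins (22.8 ± 1.24), Mcc (22.1 ± 2.11) and Gm11364 (21.0 ± 0.71). In all, 53 of 2385 intronic peaks (2.22%) were in the highest decile. The densest intergenic peak, assigned to Gm25283, was 621 bp wide and had 45, 40, 59 and 49 reads, which gave 42.9, 22.5, 36.9 and 38.0. A peak 13.4 kb from the start of Tcf21, a mesodermal bHLH gene, had 33.5, 32.3, 32.7 and 32.4 over 15.7 kb. The next 4 were assigned to Gm4780 (27.6 to 30.8 over the animals), Syde2 (28.1 ± 1.77), Gm49634 (23.6 to 30.2) and Gm8762 (27.5 ± 1.51).

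Genes were then described by list. The density of a gene was the sum of its reads over the sum of the widths of its assigned peaks, and 12001 genes had an autosomal peak. By definition 10% of these, 1200 genes, made up the highest decile, with a gene density of 15.7 or more. The share was 13.6% (1010 of 7441) among protein-coding genes. The median gene density was 5.90 over all genes and 6.43 over protein-coding ones. By RefSeq starts, 5.97% of 16457 autosomal protein-coding genes with a promoter window lay in a peak of the highest decile, and 15.8% in any peak. The lists are described against these shares, with no test. No minimum of reads was applied to gene density, and an assigned peak need not cover the start of its gene. The lowest genes of several lists rest on 1 narrow peak, such as Dazl (0.841 kb), Kcng4 (0.631 kb) and Chrnb1 (0.751 kb).

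Transcription factors of other regions and germ layers had the highest lists. Of 37 homeobox genes of brain and spinal cord with a peak, 35 were in the highest decile, with a median of 23.3. Lhx6, a factor of forebrain interneurons, had 40.1, 38.0, 37.3 and 35.3 in controls 2 to 5, and Tlx3, a factor of sensory and spinal neurons, had 39.6, 37.5, 35.9 and 33.3. Hesx1, a factor of the pituitary and forebrain, was the lowest at 8.36 ± 1.12. All 4 animals had Lhx6 and Tlx3 above the edge of the highest decile, and Hesx1 below it. By starts, 31 of 32 lay in a peak of the highest decile.

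Of 69 mesodermal and other non-neural transcription factors with a peak, 59 were in the highest decile, and their median of 26.6 was the largest of the 18 lists. Alx1 and Osr1 were the highest. Hnf4a, a liver and gut factor, was the lowest at 2.97 ± 0.659, over 4 peaks of 5.28 kb in all. By starts, 37 of 43 lay in a peak of the highest decile.

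Of 46 Wnt, FGF, BMP and hedgehog ligands with a peak, 25 were in the highest decile, with a median of 16.8, and by starts 24 of 42 lay in a peak of the highest decile. The highest were Gdf7, a BMP-family ligand of the dorsal neural tube (28.4 ± 1.52), and Fgf4, a ligand of the early embryo (28.2 ± 2.64), and the lowest Gdf5, a ligand of joint formation (2.87 ± 0.288). Among 18 germline and pluripotency genes with a peak, 7 were in the highest decile, with Fgf4 and the germ-cell regulator Prdm14 (26.2 ± 0.936) at the top and the germ-cell RNA-binding protein Dazl (2.63 ± 0.865) at the bottom.

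Genes of the retina's own cell types divided. Of 26 eye field and progenitor genes, 15 had a peak and 3 were in the highest decile, with a median of 8.05. Their highest members were Neurog2, a proneural bHLH factor (24.3, 23.4, 24.8 and 21.6), and Meis2, a homeobox cofactor (23.9, 22.8, 23.1 and 20.9). The third in the highest decile was Tbx5, at 17.0. Pax6, a homeobox gene of eye field and progenitors that was chosen after its value was seen, had 4.48, below the median of all genes.

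The remaining 11 progenitor genes had no assigned peak. Of these, Six3, Six6, Sox2, Hes5, Hes6, Notch1, Sfrp2 and Meis1 had a RefSeq promoter window, and each window lay outside all peaks. By starts, 4 of 16 members with a window lay in a peak, and 0 in a peak of the highest decile.

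The lists of ganglion, amacrine, horizontal, bipolar and Mueller glia genes hold regulators and other genes of these cells. Of 27 ganglion cell genes with a peak, 15 were in the highest decile, with a median of 18.6. Isl1 (45.8 ± 2.50) was followed by Pou4f1, a POU-domain factor of ganglion and sensory neurons (38.9, 38.1, 36.5 and 35.5), and Irx5 was the lowest (2.85 ± 0.512, over 1.68 kb). Of 28 amacrine and horizontal cell genes, 19 were in the highest decile, with a median of 20.7. Lhx1, a factor of horizontal cells, had 37.2, 37.2, 33.9 and 31.6, and Neurod4 (4.55 ± 0.966) was the lowest. Of 18 bipolar and Mueller glia genes with a peak, 10 were in the highest decile, including Grm6, the glutamate receptor of ON bipolar cells (30.9, 33.0, 32.5 and 32.7), and the lowest was Prkca, a rod bipolar kinase (3.45 ± 0.608). Isl1 is in both the ganglion and the bipolar list. By starts, 12 of 19 ganglion cell genes, 15 of 25 amacrine and horizontal cell genes and 8 of 21 bipolar and Mueller glia genes lay in a peak of the highest decile. In the last list 9 of 21 starts lay in any peak, and 10 of the 28 genes had no assigned peak.

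Of 37 photoreceptor genes on autosomes, 19 had a peak and 3 were in the highest decile, with a median of 9.53. These were Otx2, which specifies photoreceptors and bipolar cells (25.7, 24.7, 24.1 and 22.0), Mef2c (22.5, 22.7, 23.4 and 22.7) and Neurod1, a bHLH factor, at 15.8, at the edge of the decile. The phototransduction gene Pde6a was the lowest (2.46 ± 0.709, over 1.21 kb). Taking the densest peak of each gene instead gave 6 genes in the highest decile, and by starts 6 of 27 lay in a peak of the highest decile and 11 of 27 in any peak.

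Markers of tissues that could be dissected along with retina had list medians on either side of the 6.43 over all protein-coding genes with a peak. Of 15 pigment epithelium and lens genes with a peak, 4 were in the highest decile, with a median of 9.41, led by the lens genes Gja3 (23.8 ± 1.36) and Foxe3 (23.4 ± 1.54). Of 18 blood, microglia and vessel genes with a peak, 4 were in the highest decile, with a median of 5.32, and the highest were Kcnj8 and Esam, an endothelial adhesion protein (26.9 ± 1.25). By starts, 5 of 30 pigment epithelium and lens genes (16.7%) lay in a peak of the highest decile. For blood, microglia and vessel genes this was 3 of 26 (11.5%), against 5.97% of all protein-coding genes with a window. The part of such cells in the density was not tested.

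Of 39 autosomal housekeeping genes, 10 had an assigned peak, with a median of 5.40, 0 were in the highest or the lowest decile, and 0 of 31 with a window had their start in a peak. Their highest values were at Psmb4, a proteasome subunit (9.79 ± 0.93), and Rps3, a ribosomal protein (8.12 ± 0.892), and the lowest at B2m (3.54 ± 0.359). Of 1458 olfactory and vomeronasal receptor genes, 114 had a peak, 0 were in the highest decile and 31 were in the lowest, with a median of 3.91. The highest was Olfr1339 at 13.7 ± 1.5 and the lowest Olfr8 at 1.56 ± 0.244. By starts, 23 of 1260 lay in a peak, 1 of them in a peak of the highest decile.

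Among 133 genes named Zfp with a peak, many of them members of the zinc finger clusters, 5 were in the highest decile (3.76%), and the median was 5.05. Zfp648 (26.5 ± 2.52) and Zfp64 (22.7 ± 1.78) were the highest and Zfp870 (2.42 ± 0.791) the lowest. Because the Zfp and olfactory receptor families hold near-identical copies, reads in them may be split or lost by the authors' mapping, and these values are uncertain.

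Of 66 potassium channel genes with a peak, 17 were in the highest decile, with a median of 11.6, from Kcng4 (2.80 ± 1.22) to Kcng3 (30.6 ± 1.25) and Kcnj8. Of 77 neurotransmitter receptor genes, 21 were in the highest decile, with a median of 11.8. The highest were the glutamate receptors Grm6 and Grm8 (27.4 ± 0.879), and the lowest was Chrnb1, a muscle acetylcholine receptor subunit (2.77 ± 0.78). Of 180 solute carrier genes, 31 were in the highest decile (17.2%), with a median of 6.59, beside 13.6% and 6.43 over all protein-coding genes with a peak. They were led by Slc17a6, the vesicular glutamate transporter of ganglion cells (34.4, 32.4, 32.6 and 31.6), and Slc25a48 (30.8 ± 1.85), and Slc28a2b (1.72 ± 0.466) was the lowest. By starts, 16 of 56 potassium channel genes and 17 of 67 neurotransmitter receptor genes lay in a peak of the highest decile. For solute carrier genes this was 30 of 294 (10.2%), against 5.97% of all protein-coding genes with a window.

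**Figure D4:**
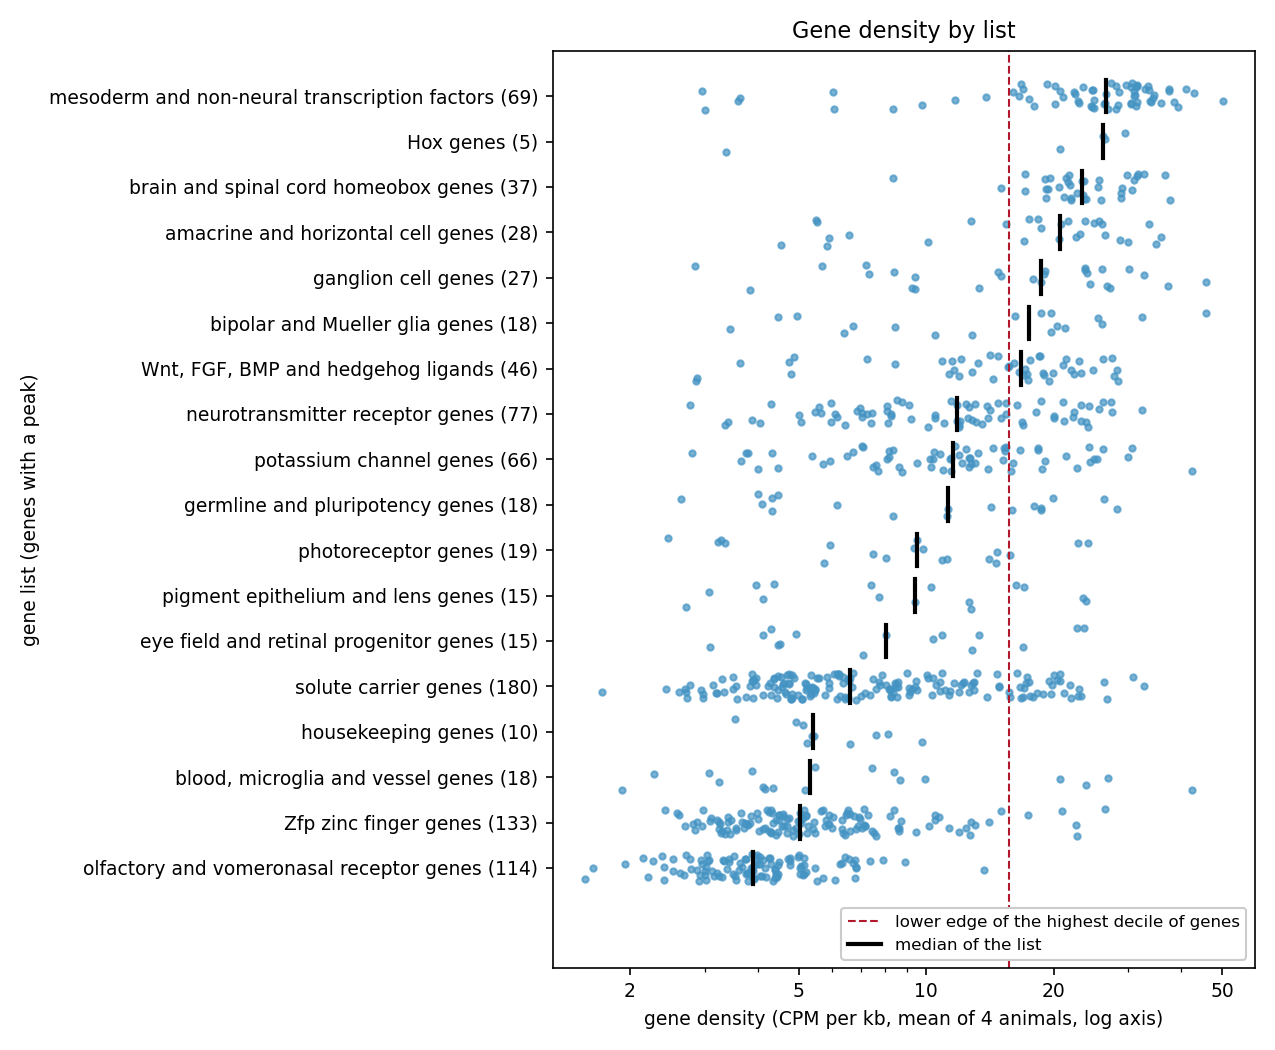
Gene density (CPM per kb, log axis, mean of 4 animals) of every listed gene with a peak, 1 point per gene, with the median of each list (black bar) and the lower edge of the highest decile of genes at 15.7 (dashed line). Transcription factor lists lie mostly to the right of the line, and housekeeping and olfactory receptor genes entirely to its left.

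CpG content of the start related differently to the presence of a peak and to its density. The ratio of observed to expected CpG (the count of CG times the window length, over the product of the counts of C and G) was computed for the RefSeq promoter window of 16457 autosomal protein-coding genes, taking the window with the highest ratio. These are 81.7% of such genes on the chromosomes that the sequence table covers and 79.6% over all autosomes, so the values hold for genes with a window. The share of windows inside a peak was 5.97% at a ratio under 0.2, 27.3% at 0.4 to 0.6 and 9.03% at 1.0 and over. Starts of middle CpG content thus lay in peaks more often than those at either end. The median density of the peak around them was 6.45, 11.4 and 13.1 in the same groups.

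The median ratio was 0.642 for the 2489 windows inside a peak, 0.623 for those outside and 0.691 for the 958 inside a peak of the highest decile. The median GC content was 62.0% inside and 56.3% outside. The windows printed above span this range, with ratios of 1.05 at Isl1, 0.853 at Hoxa10, 0.768 at Fam114a1, 0.501 at Gapdh and 0.0 at Gm6408.

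**Figure D5:**
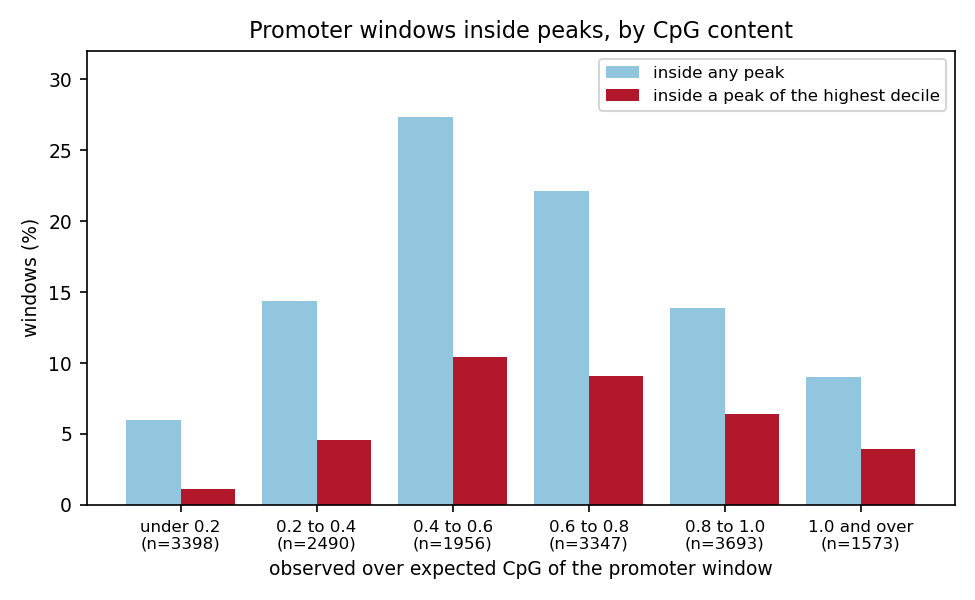
Percent of autosomal protein-coding promoter windows inside any peak (blue) and inside a peak of the highest decile of density (red), by observed over expected CpG, with the number of windows under each group. Both shares are largest at ratios of 0.4 to 0.6 (27.3% and 10.4%) and lower at each end.

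The batch 1 animal was compared with the 3 batch 2 animals to find peaks where the controls did not share a level. Of 16783 autosomal peaks tested, 119 (0.709%) were higher and 74 (0.441%) were lower in control 2, at an adjusted p under 0.05 (edgeR quasi-likelihood test, Benjamini-Hochberg). The median change was 1.68-fold among higher and 1.93-fold among lower peaks. With total counts in place of TMM scaling the split turned to 76 higher and 120 lower, so the direction of this balance depends on the scaling. Without control 4 the counts fell to 49 and 31, and DESeq2 gave 9 and 7. Control 2 alone stood for its batch, and its variation was assumed to be that of the batch 2 animals.

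Peaks within 1 kb of a start were 73 of the 119 higher peaks and 11 of the 74 lower ones, against 6554 of the 16783 tested. Among lower peaks 26 were intronic, 1.27% of the intronic peaks tested, and 26 intergenic, 0.505% of those tested, beside 0.441% of all peaks. Of the 1839 peaks in the highest decile of density, 4 were higher (0.218%) and 12 lower (0.653%) in control 2. No difference between these shares was tested. In X chromosome peaks, left out here, control 2 had 2.51% of its reads and controls 3 to 5 had 1.28% to 1.33%.

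For each direction, the 4 peaks with the smallest adjusted p are described. This choice favours peaks where control 2 lay apart from the other animals. An intronic peak assigned to Bloc1s2-ps (chr2:52633140-52638050) had densities of 7.72, 0.782, 1.34 and 2.16 in controls 2 to 5, log2 difference 2.59 ± 0.285 (SE, edgeR adjusted p = 2.19e-15). The peak across the start of Nab2, a corepressor of EGR factors, had 12.4, 6.55, 5.50 and 5.61 (edgeR adjusted p = 1.00e-09). Peaks assigned to 8030443G20Rik (10.2 against 4.18 to 5.02) and Kbtbd12 (6.97 against 1.75 to 3.48) were also higher in control 2, without overlap with the other animals.

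In the lower direction, a peak 1.83 kb from Gm48668 (chr12:20228910-20234290) had 7.60, 21.9, 26.5 and 34.0 in controls 2 to 5, log2 difference -1.74 ± 0.207 (SE, edgeR adjusted p = 3.52e-13). An intronic peak assigned to Gm15556 had 5.70, 14.1, 13.9 and 14.7 (edgeR adjusted p = 8.02e-07), and a promoter peak of Gm4287 had 1.60, 12.7, 9.97 and 19.2. The peak assigned to Gm22772 had 0, 1, 62 and 53 reads, so control 3 also lay with control 2 there and not with its own batch. Against a floor of 3 counts in control 2, batch 2 was at least 9.38-fold higher on average at that peak.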

How the data were processed

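H3K27me3 CUT&RUN libraries of 4 control animals without Cre were used. The authors' deposited table gives counts of reads per peak for 1 shared set of peaks in mm10, with width, annotation class and distance to a start per the file headers. MACS2, SAMtools, Novoalign 4.02.02 and DESeq2 1.38.1 are listed, without roles, per the submitters' processing notes. Of 16 count columns, 9 (other genotypes) were not used, and IgG libraries were not analysed here.

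Duplicates were summed, reads scaled to CPM over all peaks and divided by width in kb (Python 3.11.15, pandas 2.3.3). The batch test used edgeR 4.0.16 (glmQLFit, TMM, filterByExpr, R 4.3.3), with DESeq2 1.42.0 as an alternative. On simulated counts of 16300 peaks it called 59 of 100 peaks changed 2-fold and 10 of 100 changed 1.5-fold, with 2 false calls. The simulation gave control 2 the same variation as the batch 2 animals. It therefore cannot show how many false calls arise if control 2 varies otherwise.

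Named were the 12 highest peaks, the 12 highest, 8 median and 10 lowest protein-coding promoter peaks, the 6 highest intronic and intergenic peaks, the 5 widest, the 2 highest genes and 1 lowest gene per list, and the 4 smallest adjusted p per direction. The members and lists were chosen with earlier results of these data known. Counts by RefSeq start (window wholly inside a peak) were added after seeing the data, and 5 genes that a name prefix had wrongly put in the receptor list were removed. Some items that these rules select are not reported here.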

Additional observations from a re-analysis of the deposited data

Results flagged for a closer look

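Of 96 sets of 4 animals examined, 4 had 1 animal far from the other 3 by Dixon's ratio, and chance flags about 1 in 20 such sets. At the Ipo11 promoter peak control 5 had a density of 9.03, and the others had 3.63 to 4.31, from 10 to 27 reads. At the peak across Cyp27b1 control 2 had 44.6, against 40.9 to 41.5. At the wide Htatip2 peak control 2 had 20.9, against 18.01 to 18.28. At the intergenic peak assigned to Gm49634 control 2 was the low animal with 23.6, against 29.1 to 30.2.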

How the results depend on the processing

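No paired analysis was possible because the 4 animals form 1 group and each carries its own replicate number. All 84 recomputed log2 ratios of the promoter median to another class median kept their sign, from 0.195 to 0.786, over the scalings, the minimum of 10 reads, the added 300 bp of width, single duplicates, each animal left out and promoter limits of 1 and 5 kb. Of 252 recomputed list counts, 246 stayed within 1.5 times the reported count. The exceptions were photoreceptor genes by densest peak (6 in the highest decile) and, by RefSeq start (chosen after seeing the data), Hox (22), mesodermal (37), progenitor (0), photoreceptor (6) and olfactory receptor genes (1). That setting counts only genes with a window. Of 599 recomputed densities of named peaks, 586 moved by less than 1 SD between animals.

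The batch counts were less stable. Lower peaks in control 2 numbered 48 at an adjusted p under 0.01, 120 with total counts and 7 with DESeq2, and 31 to 102 with 1 batch 2 animal left out. Higher peaks numbered 55, 76 and 9 under the same settings, 408 with X peaks included, 75 with the first duplicate only, and 49 to 149 with 1 batch 2 animal left out. The cause was not tested. Of the peaks, 3023 had a mean under 10 reads per animal, where counting error limits any ranking.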

Other observations

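The mark was spread over all autosomes. The share of peaks in the highest decile of density ran from 7.47% on chromosome 8 to 11.7% on chromosome 2, around the 10% set by definition. Among peaks with a start inside, 13 of 54 at miRNA genes (24.1%) and 59 of 281 at long intergenic non-coding RNAs (21.0%) were in the highest decile. The share was 32.1% of 4137 peaks at protein-coding starts and 9.09% of 242 at processed pseudogenes. These are descriptions, and no difference between gene types was tested.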
